A study of Mus musculus with 12 samples.

Results

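RNA of the lumbar spinal cord from 3 mice modelling amyotrophic lateral sclerosis (ALS) and read as treated with edaravone (group E, mice 75, 77 and 90) was compared with that of 3 mice of the same model given phosphate-buffered saline (PBS, group P, mice 66, 67 and 74). These are 6 of the 12 libraries of the series, taken by group with no selection on any measured value. The comparison covers all 18149 genes with enough reads, of 33906 listed. The other 6 libraries are healthy wild-type mice (group H, mice 1, 2 and 4) and ALS model mice that received manganese-doped carbon dots (group C, mice 79, 84 and 85), and they appear below only as reference values. Mice of P, C and E all carry the ALS model, and mice of H do not. The labels name neither the strain or transgene of the model, nor age, sex, dose, route or length of treatment, except that PBS was fed. The text on the series lists a group E but describes edaravone under the letter D, so E is the edaravone group by elimination. Each number marks a different mouse.

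ALS is a disease in which motor neurons of the spinal cord and brain degenerate, while microglia and astrocytes around them take on a reactive state with high complement, lysosomal and major histocompatibility genes. Edaravone is a small molecule that scavenges free radicals and is used to treat ALS. Oxidative stress is read in RNA mainly through enzymes that remove superoxide and peroxide and through targets of NRF2, the transcription factor that is released from its partner KEAP1 under oxidative stress.

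The libraries carried 17932300 to 19155500 recovered reads in E and 18149100 to 18575500 in P. Values are FPKM, which are reads scaled by exon length and by library size, and differences are on log2(FPKM + 1) with their standard error, which understates changes of genes near 0. The model label was checked against disease genes. Gfap, the astrocyte filament protein, was at 398, 332 and 485 FPKM in H, 2112, 1917 and 1121 in P and 1647, 1013 and 1411 in E, in the order of mice given above. The mice of P differed among themselves. Of the 61 tested microglial, complement and reactive astrocyte genes described here, 60 were highest in mouse 66 and 61 lowest in mouse 74 among the mice of P. On the first principal component of all genes (47.0% of the variance) P ran from -4.72 to 30.7, E from 7.27 to 19.9 and H from -46.3 to -30.3. Markers of the level along the cord also differed. The mean log2(FPKM + 1) of caudal Hox genes, which mark the lumbosacral end of the cord, was 0.86, 2.09 and 2.55 in P, 2.25, 2.63 and 2.71 in E, 0.54 to 1.34 in C and 0.32 to 1.67 in H. Hoxc12, of the most caudal of these, was at 0, 1.45 and 2.40 FPKM in P and 3.38, 3.94 and 3.06 in E.

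No gene passed an adjusted p of 0.05 between E and P (limma, Benjamini-Hochberg over 18149 genes, 0% called). The smallest adjusted p was 0.0917, shared by Lcn2 and Bok. At an unadjusted p under 0.05 there were 890 genes (4.9%), 519 higher and 371 lower in E, where an even spread of p-values would put 907. A count model on the recovered reads (limma-voom) also called 0 genes, with 828 at an unadjusted p under 0.05. In the same fit 2808 genes (15.5%) passed between P and H, 12.2% higher and 3.25% lower in P. Between E and H 2391 (13.2%) passed, 11% higher and 2.15% lower in E. Without mouse 74 of P the count at an unadjusted p under 0.05 was 1505, and it was 674 without mouse 66, each with 0 genes past the adjusted p.

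For 97.1% of genes (17619) the 95% confidence interval of the difference between E and P lay between -1 and 1 on log2(FPKM + 1), and the median interval reached 0.25 units to either side. For genes near or below 1 FPKM this scale does not bound the fold in FPKM. On that scale 53 genes had a difference of at least 1, of which 51 were higher and 2 lower in E. Changes smaller than the interval of a gene were not detectable at this depth and number of mice, and larger ones could fail to pass. The intervals are unadjusted, while calls used the adjusted p. None of the 890 genes at an unadjusted p under 0.05 passed it.

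**Figure D1:**
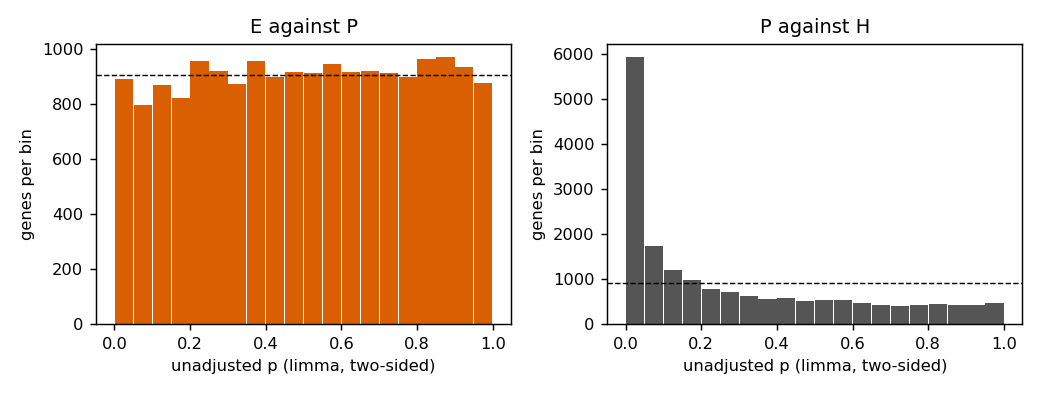
Number of genes (vertical axis) per bin of unadjusted p (horizontal axis, 20 bins) for E against P on the left and P against H on the right, over the same 18149 genes. The dashed line is an even spread; the first bin holds 890 genes for E against P and 5925 (32.6%) for P against H, and the vertical scales differ.

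Genes of disease-associated microglia, the state marked by Trem2-dependent lysosomal and lipid genes, were far above healthy cord in E. Of 28 such genes 24 rose from H to P and 24 rose from H to E, and 0 passed between E and P. Cst7, a cysteine protease inhibitor that is nearly silent in healthy microglia, was at 0.0604, 0.0553 and 0.704 FPKM in H, 46.7, 32.4 and 17.6 in P and 25.2, 13.6 and 29.5 in E. E and P overlapped, and the difference of -0.45 ± 0.34 (95% interval -1.20 to 0.31) stood beside a rise of 4.64 ± 0.34 from H to P (adjusted p = 8.03e-05) and of 4.19 ± 0.34 from H to E (adjusted p = 0.00017). Clec7a, a pattern recognition receptor, was at 55.2, 31.1 and 19.2 FPKM in P and 21.8, 16.8 and 29.3 in E, against 0.248, 0.331 and 0.460 in H. Its lowest value in P, of mouse 74, lay between the lowest and middle values of E. Trem2 itself, the lipid-sensing receptor of this state, differed between E and P by -0.28 ± 0.24 (95% interval -0.80 to 0.23). Itgax, an integrin chain, differed by -0.37 ± 0.30 and Lgals3, a galectin of phagocytic cells, by 0.35 ± 0.33. Gpnmb, a lysosomal membrane glycoprotein, leaned the other way, with 31.1, 15.4 and 47.4 FPKM in E and 31.5, 22.0 and 7.87 in P (0.65 ± 0.51).

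In these microglial genes 22 of 28 had a lower mean in E than in P, with a median of -0.20 log2 units against 0.01 over all genes, and none reached an unadjusted p under 0.05. That direction rested on single mice. The median was 0.06 without mouse 66 of P, 0.02 without mouse 77 of E and -0.38 without mouse 74 of P. Of 17 homeostatic microglial genes 15 rose from H to P and 12 from H to E. Against P 16 had a lower mean in E. Of these 1 reached an unadjusted p under 0.05 (2.04% of all genes did so with a lower mean). The median of the 17 between E and P was -0.28. It ran from -0.48 to -0.11 with any 1 library left out, with the value nearest 0 without mouse 66 of P. Aif1, the calcium-binding protein IBA1 of microglia, was at 12.2, 8.20 and 4.84 FPKM in P and 8.56, 4.14 and 6.73 in E, and Csf1r, the receptor microglia need to survive, at 67.7, 54.8 and 39.4 and 51.4, 34.4 and 46.3. In bulk tissue, fewer cells of a type and less RNA per cell cannot be told apart.

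Complement genes were near the PBS level in E. All 13 tested members rose from H to P and all 13 rose from H to E. C4b was at 19.1, 17.6 and 16.1 FPKM in H, 184, 149.5 and 108 in P and 120.4, 95.1 and 138 in E, with -0.30 ± 0.18 between E and P (95% interval -0.69 to 0.09). C1qa, of the initiating complex, was at 304, 241 and 136 FPKM in P and 229.7, 121 and 225 in E. C3, the central component, had the lowest p of the list, with 115, 81.1 and 43.1 FPKM in P and 39.5, 35.0 and 48.6 in E (-0.85 ± 0.31, adjusted p = 0.762), and mouse 74 of P lay inside the range of E. The list went both ways, with 8 of the 13 lower and 5 higher in mean in E, from -0.85 to 0.83. Its median between E and P was -0.12, and it was 0.13 without mouse 66 and -0.44 without mouse 74 of P.

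Reactive astrocyte genes were likewise near the PBS level, with 18 of 20 risen from H to P and 18 from H to E. Serpina3n, a secreted protease inhibitor, was at 31.2, 27.2 and 21 FPKM in H, 669.8, 446 and 233 in P and 419.8, 214 and 394 in E. Gfap differed by -0.32 ± 0.25 (95% interval -0.86 to 0.23), so a fall of more than about 2-fold lay outside its interval. The median of the list was -0.11 between E and P, 0.09 without mouse 66 of P and -0.39 without mouse 74. In mean, 5 of the 20 were higher and 15 lower in E. Of this list, Lcn2, Steap4 and Cp had higher values in every mouse of E than in any of P, and 0 lay below without overlap. Over all genes 4.8% were higher and 4.2% lower without overlap. Lcn2 and Steap4 are described with the genes of smallest p.

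**Figure D2:**
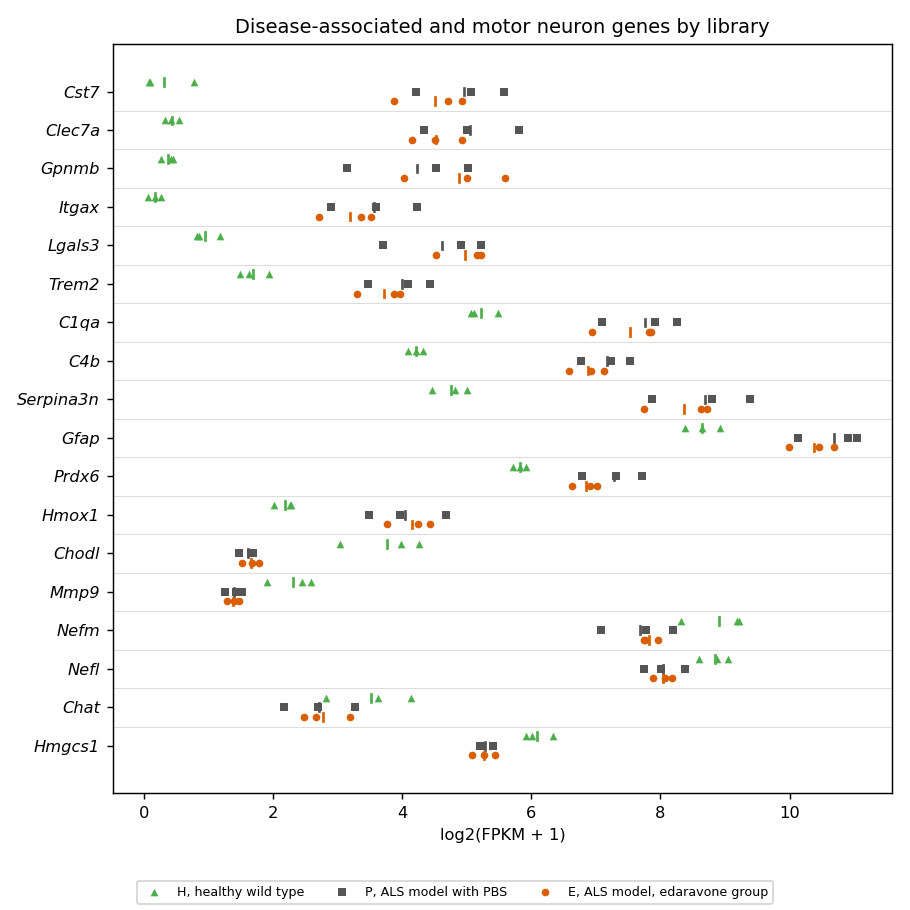
Level of each gene in log2(FPKM + 1) (horizontal axis) in the 3 libraries each of H (triangles), P (squares) and E (circles), with vertical ticks at group means. Cst7, C4b and Serpina3n of P and E sit together, far above H, and Chodl and Nefl of P and E sit together, below H.

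Motor neuron genes, the cells lost in ALS, were no higher in E than in P beyond the spread. Chodl, a marker of fast motor neurons, which are lost first in many ALS models, was at 18.1, 14.8 and 7.19 FPKM in H, 1.76, 2.16 and 2.23 in P and 1.87, 2.20 and 2.45 in E. All E and P values lay below the lowest H value, and E and P overlapped, with a difference of 0.06 ± 0.28 (95% interval -0.55 to 0.66) beside a fall from H to P of -2.15 ± 0.28 (adjusted p = 0.000945). Mmp9, a protease of the same vulnerable neurons, was at 1.38, 1.86 and 1.68 FPKM in P and 1.77, 1.45 and 1.63 in E against 5.02, 4.44 and 2.76 in H. Chat, the acetylcholine-synthesizing enzyme, was at 16.6, 11.3 and 6.03 FPKM in H, 3.49, 5.48 and 8.66 in P and 4.58, 5.35 and 8.14 in E, and its fall from H to P did not pass (adjusted p = 0.137). Mnx1 and Isl1, transcription factors of motor neurons, differed between E and P by -0.05 ± 0.22 and -0.15 ± 0.11.

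Of 19 motor neuron genes tested, 5 fell from H to P and 4 from H to E, and none reached an unadjusted p under 0.05 between E and P. Their median between E and P was 0.07, and it was -0.20 with the caudal Hox score as a covariate and -0.10 without mouse 66 of P. The neurofilaments, which make up the axon's skeleton, fell from H to P and were at about the P level in E. Nefl was at 470.3, 529 and 385 FPKM in H, 215, 256 and 332 in P and 234, 268 and 289 in E, with a 95% interval of -0.38 to 0.38 for the difference between E and P. Nefm differed by 0.14 ± 0.27 and Nefh by 0.03 ± 0.31, again with E within the range of P. Among 20 pan-neuronal and synaptic genes 19 had a higher mean in E than in P (53.7% of all genes did), by a median of 0.19, and the median was 0.03 without mouse 66. Syp, a synaptic vesicle protein, was at 33.7, 50.1 and 59.7 FPKM in P and 67.7, 53.1 and 52.3 in E, with mouse 74 of P inside the range of E.

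The RNA of enzymes that remove superoxide and peroxide did not separate E from P. Radicals and oxidized molecules themselves were not measured in these data. None of 20 passed, none reached an unadjusted p under 0.05, 10 had higher and 10 lower means in E, and in none did the E and P values fail to overlap (9.01% of all genes did not overlap). Sod1, the cytosolic superoxide dismutase whose human mutations cause familial ALS, was at 140.2, 161 and 151 FPKM in P and 177, 142 and 151 in E (0.05 ± 0.23, 95% interval -0.44 to 0.54). Sod2, the mitochondrial enzyme, was at 24.5, 27.0 and 34.7 FPKM in P and 27.4, 31.0 and 31.0 in E (0.06 ± 0.12, 95% interval -0.20 to 0.33). Sod3, the extracellular enzyme, differed by -0.04 ± 0.20 and catalase (Cat) by -0.15 ± 0.11. Prdx6, a peroxiredoxin rich in astrocytes, was the enzyme that rose most from H to P (1.45 ± 0.19, adjusted p = 0.00115). It had 209.8, 157 and 109.8 FPKM in P and 128, 98.2 and 119 in E, a difference of -0.42 ± 0.19 with an interval of -0.85 to 0.01, and mouse 74 of P lay below the mean of E. Glutathione peroxidases Gpx1, Gpx3 and Gpx4 differed by -0.20 ± 0.14, 0.32 ± 0.15 and -0.02 ± 0.12.

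None of the NRF2 genes passed, and those in which E and P did not overlap had lower values in E. Nfe2l2, which encodes NRF2, rose from 10.2, 9.17 and 8.35 FPKM in H to 24.5, 20.4 and 17.4 in P (adjusted p = 0.000875) and was at 18.1, 18.7 and 24.0 in E (-0.03 ± 0.14, 95% interval -0.33 to 0.27). Hmox1, heme oxygenase 1 and a classic target, was at 3.78, 3.86 and 3.04 FPKM in H, 24.5, 14.6 and 10.2 in P and 17.9, 12.5 and 20.6 in E. E and P overlapped, at 0.10 ± 0.25. Keap1 and the subunits of the first enzyme of glutathione synthesis, Gclc and Gclm, differed by 0.12 ± 0.10, -0.02 ± 0.08 and -0.03 ± 0.09. Of 24 genes, 5 had every E value below every P value and 0 had every E value above (4.2% and 4.8% of all genes). Gstm1, a glutathione transferase, was at 183, 164 and 178 FPKM in P and 124, 136 and 155 in E (-0.34 ± 0.10, adjusted p = 0.559). Nqo1, a quinone reductase, was at 11.6, 10.1 and 8.71 and 8.14, 7.24 and 8.36 FPKM (-0.31 ± 0.12, adjusted p = 0.885), and Me1, malic enzyme, at 43.0, 38.1 and 32.1 and 30.5, 31.6 and 31.8 (-0.25 ± 0.10). These 3 reached an unadjusted p under 0.05 and did not pass. The other 2 were Gsr, glutathione reductase (-0.12 ± 0.07), and G6pdx, the first enzyme of the pentose phosphate pathway (-0.22 ± 0.11). The median of the list was -0.03.

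**Figure D3:**
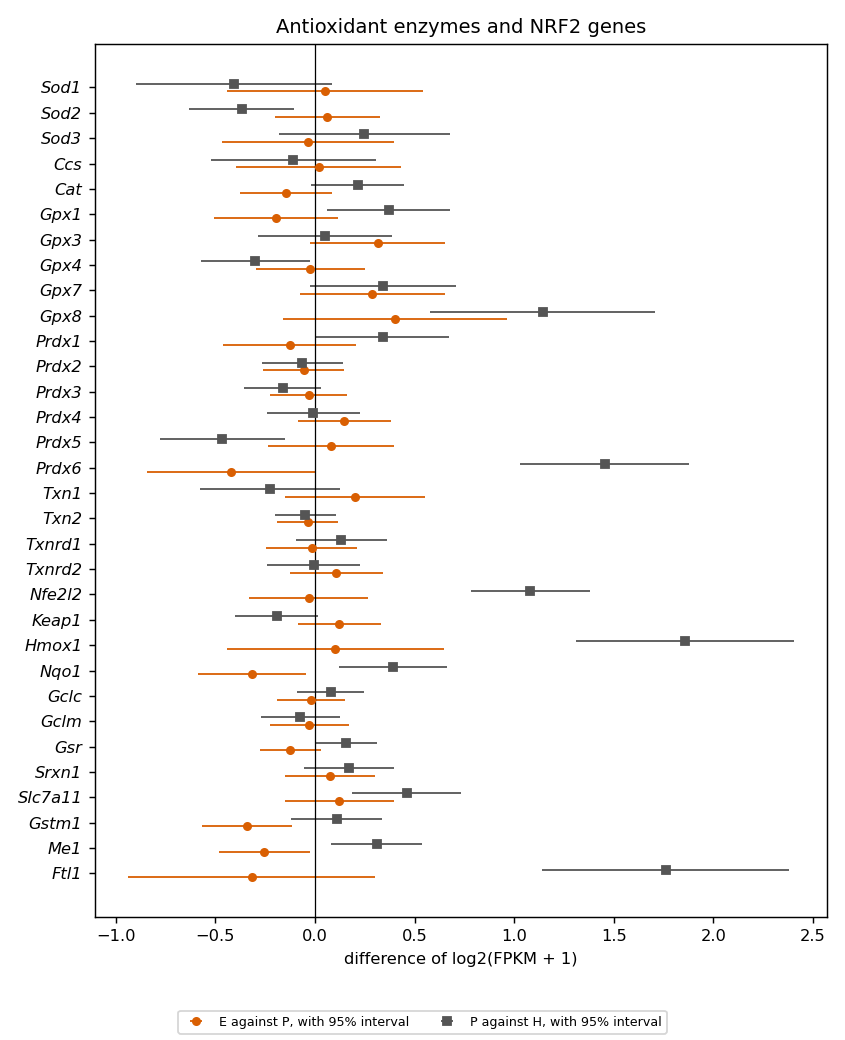
Difference of log2(FPKM + 1) (horizontal axis) with its 95% interval for 32 antioxidant and NRF2 genes, between E and P (circles) and between P and H (squares). Sod1, Sod2, Nfe2l2 and Hmox1 of E against P straddle 0, while Prdx6, Nfe2l2, Hmox1 and Ftl1 of P against H lie above 1.

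Iron and lipid peroxidation genes, nuclear genes of oxidative phosphorylation and lipid genes also had medians near the PBS level, with single members apart. The median was -0.01 for 19 iron and lipid peroxidation genes and 0.07 for 14 of lipid handling. Of the 19, Cp lay above P without overlap (0.83 ± 0.27, adjusted p = 0.615) and 1 lay below. Of the 14, 2 lay above P without overlap. Over all genes 4.8% were higher and 4.2% lower without overlap. Gpx4, which removes lipid peroxides and blocks ferroptosis, was at 91.9, 103 and 101 FPKM in P and 104, 91.5 and 96.4 in E (95% interval -0.30 to 0.25). Slc7a11, the cystine importer, differed by 0.12 ± 0.13. Xdh, xanthine dehydrogenase, which can make superoxide, had 3.50, 4.69 and 4.77 FPKM in P and 6.15, 9.19 and 10.5 in E, with no overlap (0.83 ± 0.19, adjusted p = 0.257). Of 32 nuclear genes of oxidative phosphorylation 17 fell from H to P and 5 from H to E, and the median between E and P was 0.07 with none at an unadjusted p under 0.05. A count that passes in one comparison and not in another does not show that E and P differ here. Sdhb, a subunit of complex II, was at 44.7, 45.7 and 47.1 FPKM in H, 32.5, 35.2 and 33.9 in P and 40.3, 35.0 and 35.8 in E. Of 12 mitochondrially encoded genes tested, 11 had a lower mean in E than in P, with 1 lower without overlap. Their median was -0.15, or -0.23 to -0.03 with any 1 library left out, and 0 reached an unadjusted p under 0.05. Cholesterol synthesis genes fell from H in both groups, 16 of 24 in P and 15 in E. Hmgcs1, an early enzyme of that pathway, was at 59.1, 63.7 and 79.4 FPKM in H, 36.9, 35.7 and 41.4 in P and 32.7, 42.5 and 37.6 in E. NADPH oxidase genes, a source of superoxide in microglia, had 7 of 8 risen in P and 7 in E, with a median of -0.11 between E and P. Nos3, the endothelial nitric oxide synthase, and Vegfa, a vessel growth factor, differed by -0.06 ± 0.13 and -0.05 ± 0.15.

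The genes of smallest p are given as values, since none passed. Lcn2 (ENSMUSG00000026822, chr2:32384633-32388252), the iron-carrier protein lipocalin 2 of reactive astrocytes and the acute-phase response, was at 2.87, 2.42 and 1.41 FPKM in P and 6.93, 12.9 and 15.3 in E. Every E value was above every P value, 2.31, 2.05 and 2.97 in C and 1.02, 0.395 and 0.794 in H. The difference was 1.94 ± 0.26 (95% interval 1.38 to 2.50, adjusted p = 0.0917), and its adjusted p ran from 0.0119 to 0.532 over the 15 alternative settings, passing only without mouse 75 of E. Between E and C the same gene did pass (1.83 ± 0.26, adjusted p = 0.0254). Bok (ENSMUSG00000026278, chr1:93685660-93695764), a BCL2 family member, was at 3.34, 4.38 and 3.96 FPKM in P and 8.50, 6.69 and 7.32 in E (0.80 ± 0.11, adjusted p = 0.0917). Its P values lay below both E and the 5.21, 5.66 and 6.26 of H. Ccl11 (chr11:82057823-82062955), the chemokine eotaxin, had 1.39, 1.70 and 0.380 FPKM in P and 6.93, 6.33 and 14.2 in E (2.21 ± 0.39, adjusted p = 0.191). Steap4 (chr5:7960457-7982213), a metalloreductase of iron and copper, had 1.84, 1.35 and 0.746 and 4.87, 3.97 and 9.48 (1.57 ± 0.28, adjusted p = 0.214).

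The 6 others of the 10 genes of smallest p with a higher mean in E also showed no overlap. Stra6, the receptor for retinol-binding protein, was at 0.796, 0.742 and 0.626 FPKM in P and 1.44, 1.79 and 2.04 in E, with C at 1.52, 1.59 and 1.49, within the range of E. Lamb1, a laminin chain of basement membranes, was at 1.72, 2.17 and 1.62 in P and 4.98, 3.67 and 7.73 in E (1.14 ± 0.18, adjusted p = 0.17). It passed only without mouse 77 of E (adjusted p = 0.0402), whose value was the lowest of E. Sult1a1, a phenol sulfotransferase, was at 9.46, 8.37 and 9.72 and 17.1, 17.5 and 20.8 (0.93 ± 0.16), and Chp2, a calcineurin-like calcium-binding protein, at 0.506, 0.827 and 0.660 and 2.10, 1.60 and 1.90 (0.78 ± 0.13). The sodium channel Scn7a and the glucocorticoid-induced chaperone Fkbp5 complete the set and are described below.

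The 10 named genes of smallest p with a lower mean in E each differed by less than 1 on log2(FPKM + 1). Car2 (ENSMUSG00000027562, chr3:14886273-14900770), a carbonic anhydrase rich in oligodendrocytes, was at 207, 169 and 173 FPKM in P and 124, 135 and 131 in E (-0.49 ± 0.10, adjusted p = 0.25). Its E values were near the 132, 148 and 143 of H. Tmprss5, a membrane serine protease, was at 7.89, 6.92 and 6.79 in P and 4.73, 3.70 and 5.59 in E (-0.54 ± 0.13, adjusted p = 0.288), and both lay below the 11.4, 9.35 and 11.0 of H. Ucma, a matrix protein, was at 8.66, 6.0 and 5.85 and 3.81, 2.64 and 3.57 FPKM (-0.84 ± 0.22), and Kcnk13, a potassium channel of microglia, at 7.66, 6.74 and 7.73 and 5.86, 4.95 and 5.99 (-0.34 ± 0.09). The other 6 were Bcas1os2, Sox2ot, Pls1, Ccdc191, Tnfrsf13b and Rasgrp3, with differences of -0.54 to -0.38. Bcas1os2 is antisense to Bcas1, and Sox2ot overlaps Sox2. The sources used here do not say whether counting used strand. How reads from stretches shared with the overlapped genes were counted is therefore not known.

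**Figure D4:**
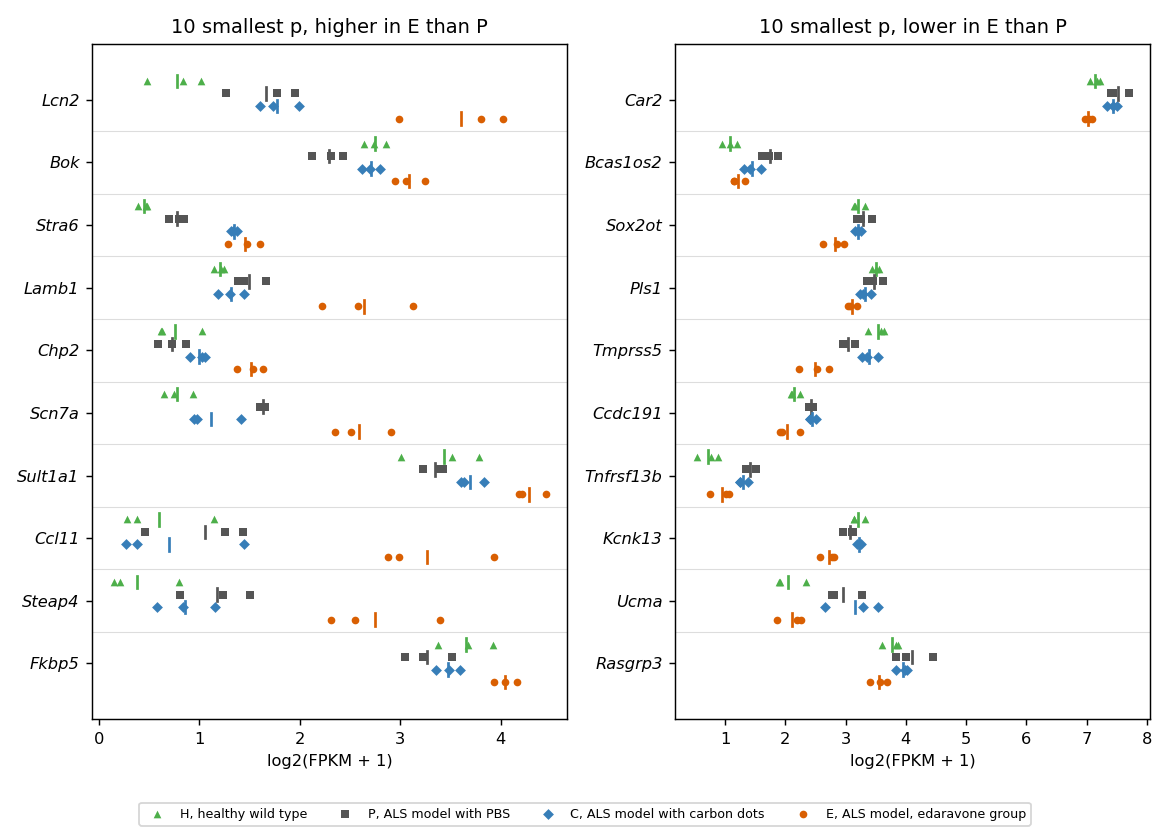
Level in log2(FPKM + 1) (horizontal axis) of the 10 named genes of smallest p with higher (left) and lower (right) means in E than in P, for each library of H, P, C and E, with ticks at group means. E and P do not overlap in any of the 20 genes, and none passed the adjusted p.

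Of the 52 lists, the highest median between E and P was that of Schwann cells and nerve root, the cells that myelinate axons outside the cord. All 12 tested members of 13 had a higher mean in E than in P, with a median of 1.10 log2 units against 0.01 over all genes. Of them 9 reached an unadjusted p under 0.05 (2.86% of all genes did so with a higher mean), and 0 passed. In 9 every E value was above every P value (4.8% of all genes). Pmp22, a peripheral myelin protein, was at 109, 118 and 88.1 FPKM in P and 244, 195 and 393 in E (1.34 ± 0.32, adjusted p = 0.334). Drp2, a dystrophin relative of the Schwann cell membrane, was at 14.3, 16.4 and 14.5 and 25.5, 21.7 and 39.3 FPKM (0.85 ± 0.18). Gldn, which gathers sodium channels at peripheral nodes, was at 1.66, 2.17 and 0.934 and 5.16, 3.94 and 9.94 (1.45 ± 0.29). Scn7a, a sodium channel of Schwann cells and sensory neurons, was at 2.13, 2.05 and 2.14 and 4.11, 4.68 and 6.52 (0.95 ± 0.16, adjusted p = 0.188). For each of these 4 the lowest E value was above the highest P value.

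The median stayed at 0.90 to 1.34 with any 1 library left out and was 0.91 with the caudal Hox score as a covariate. Against healthy cord all 12 members rose in E and 6 in P (11% and 12.2% of all genes). Against C 4 were higher in E (Scn7a, Drp2, Gldn and Pmp22), beside 0.121% of all genes. As 0 of the 12 passed between E and P, these counts do not show that E and P differ. The labels do not say how much spinal root was kept at dissection, and its part in these values was not tested. Sox2, which cord cells also express, was at 36.0, 26.5 and 24.8 FPKM in P and 38.2, 26.0 and 26.3 in E and overlapped. Ngfr, the p75 neurotrophin receptor that Schwann cells without axon contact express, was at 1.68, 2.48 and 1.5 and 7.40, 2.79 and 10.7 FPKM (1.33 ± 0.31, adjusted p = 0.288). It is not on the nerve root list, and Sox2 and Ngfr were picked here after their values were seen. Ngfr had the largest difference of the axon injury and neurotrophic factor lists, whose medians were 0.13 and 0.10. Ngfr passed without mouse 77 of E (adjusted p = 0.0140), the mouse of lowest value in E.

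Fibroblast, meningeal and collagen genes leaned the same way against P as the nerve root list. In C against P the median was 0.29 for meningeal and fibroblast genes, 0.09 for collagens and -0.40 for the nerve root list. Between E and C these medians were 0.04, 0.56 and 1.55. Of 15 meningeal and fibroblast genes 12 had a higher mean in E, 8 at an unadjusted p under 0.05. Over all genes 53.7% had a higher mean, and 2.86% a higher mean at that p. The median of this list was 0.65, and it was 0.34 without mouse 75 and 1.06 without mouse 77 of E. Dcn, the proteoglycan decorin, was at 17.7, 17.3 and 6.33 FPKM in P, 39.1, 37.1 and 74.9 in E and 7.78, 2.86 and 1.93 in H. Ogn, osteoglycin, was at 25.6, 22.3 and 17.4 and 56.6, 57.6 and 113. Mouse 90 had the highest values of both and each E mouse lay above each P mouse. Among 17 collagens 15 had a higher mean in E, 11 at an unadjusted p under 0.05 (53.7% and 2.86% of all genes). Their median was 0.61. Col4a1 and Col4a2, the basement membrane collagens, were at 6.23, 6.07 and 5.44 and 8.72, 11.5 and 10.4 FPKM in P. In E they were at 9.85, 8.61 and 14.6 and 15.4, 13.4 and 16.9 (0.77 ± 0.18 and 0.54 ± 0.13, adjusted p = 0.308 and 0.339). Col3a1, of fibrous matrix, was at 2.46, 1.97 and 0.887 and 5.76, 3.63 and 9.51 (1.36 ± 0.38).

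Vessel and border cell genes also mostly had higher means in E. In C against P the median was 0.15 for endothelial and barrier genes and 0.14 for border and blood macrophage genes. Of 19 endothelial and barrier genes 16 had a higher mean in E (median 0.26), 7 at an unadjusted p under 0.05 and 6 without overlap. Over all genes 53.7% had a higher mean, 2.86% a higher mean at that p and 4.8% a higher mean without overlap. Without mouse 90 of E 2 of the 19 reached that p, and without mouse 74 of P 3 did. Mfsd2a, a lipid transporter of the blood-brain barrier, was at 23.1, 27.2 and 23.3 FPKM in P and 35.0, 30.2 and 32.6 in E (0.40 ± 0.12). Ly6a and Ly6c1, surface antigens of endothelium, were at 24.6, 21.4 and 19.1 and 25.2, 25.1 and 22.7 in P and 30.0, 35.7 and 43.0 and 29.0, 38.4 and 37.6 in E. Mrc1, the mannose receptor of border macrophages, was at 1.08, 0.914 and 0.351 and 1.73, 1.56 and 3.24 FPKM (0.82 ± 0.22, adjusted p = 0.41). All 9 border and blood macrophage genes tested had a higher mean in E, by a median of 0.28. It was 0.15 without mouse 90, 0.56 with a pseudocount of 0.1 and 0.61 with limma-voom.

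Glucocorticoid-induced and immediate early genes mostly had higher means in E. Of 16 glucocorticoid response genes 15 had a higher mean in E (median 0.33) and 6 reached an unadjusted p under 0.05. Over all genes 53.7% had a higher mean, and 2.86% a higher mean at that p. Fkbp5, a chaperone that dampens the glucocorticoid receptor, was at 8.36, 10.4 and 7.28 FPKM in P and 15.4, 14.3 and 16.9 in E (0.78 ± 0.15, adjusted p = 0.214), with 14.2, 9.35 and 11.7 in H. Cdkn1a, the cell cycle inhibitor p21, was at 37.9, 42.3 and 30.7 and 49.9, 63.6 and 69.9 (0.71 ± 0.17, adjusted p = 0.318), with 55.3, 40.3 and 62.2 in H. The mice of E were not alike in this list. Sgk1, a kinase induced by glucocorticoids within hours, was at 28.7, 82.7 and 79.5 FPKM in E, so mouse 75 lay below and mice 77 and 90 above all of P (52.9, 57.0 and 47.9). Ddit4, an inhibitor of mTOR signalling, was at 21.2, 29.0 and 24.5 and 20.3, 44.2 and 44.4 FPKM, with mouse 75 lowest of all 6. Without mouse 75 the median was 0.61 with 13 genes at an unadjusted p under 0.05, and without mouse 77 it was 0.21 with 4.

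Of 17 immediate early genes, which respond to activity and handling within minutes, 16 had a higher mean in E (median 0.38). Of them 8 reached an unadjusted p under 0.05. Over all genes 53.7% had a higher mean, and 2.86% a higher mean at that p. The median of the list was 0.31 to 0.43 with any 1 library left out. Fos, a transcription factor subunit, was at 6.26, 5.80 and 4.99 FPKM in H, 16.7, 11.5 and 10.1 in P and 17.6, 24.2 and 17.3 in E (0.60 ± 0.17, adjusted p = 0.445). Egr1, a zinc finger factor, was at 13.1, 10.5 and 8.79 and 16.2, 22.0 and 15.1 (0.67 ± 0.17), and Nr4a1, an orphan nuclear receptor, at 7.97, 8.50 and 7.11 and 9.31, 16.6 and 12.4 (0.60 ± 0.18). In each of these 3, E and P did not overlap. The clock genes, which follow time of day, had a median of 0.02 with none of 17 at an unadjusted p under 0.05. Per1 was at 14.7, 15.8 and 14.0 FPKM in P and 14.5, 18.3 and 17.7 in E. The labels give neither time of day nor handling at death. The part of either in the values of the immediate early and clock genes was not tested.

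Genes of central myelin, made by oligodendrocytes, mostly had lower means in E. Of 18 genes 17 had a lower mean in E, by a median of -0.19. An unadjusted p under 0.05 was reached by 4 (2.04% of all genes did so with a lower mean). In 5 every E value was below every P value (4.2% of all genes). Mbp, myelin basic protein, was at 2159.8, 1784 and 2539 FPKM in H, 1771, 1793 and 1656 in P and 1199.8, 1441 and 1603 in E (-0.31 ± 0.15, adjusted p = 0.998). Mog, on the outer face of myelin, was at 88.6, 89.9 and 91.6 and 73.7, 72.7 and 76.3 (-0.28 ± 0.11), and Opalin, of mature oligodendrocytes, at 19.7, 15.5 and 17.6 and 13.9, 8.99 and 10.2 (-0.64 ± 0.18, adjusted p = 0.426). Against healthy cord 3 of the list fell in E (2.15% of all genes did), Mbp (-0.61 ± 0.15, adjusted p = 0.0209) and Mog (-0.71 ± 0.11, adjusted p = 0.00237) among them. In P against H 1 fell and 1 rose (3.25% and 12.2% of all genes). Of the 18, 0 passed between E and P, and these counts do not show that E and P differ. Without mouse 75 of E, which had the lowest Mbp, the list's median against P was -0.09. FPKM are shares of a library, and nerve root genes were higher in the same E libraries. The part of tissue makeup in the myelin values was not tested.

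**Figure D5:**
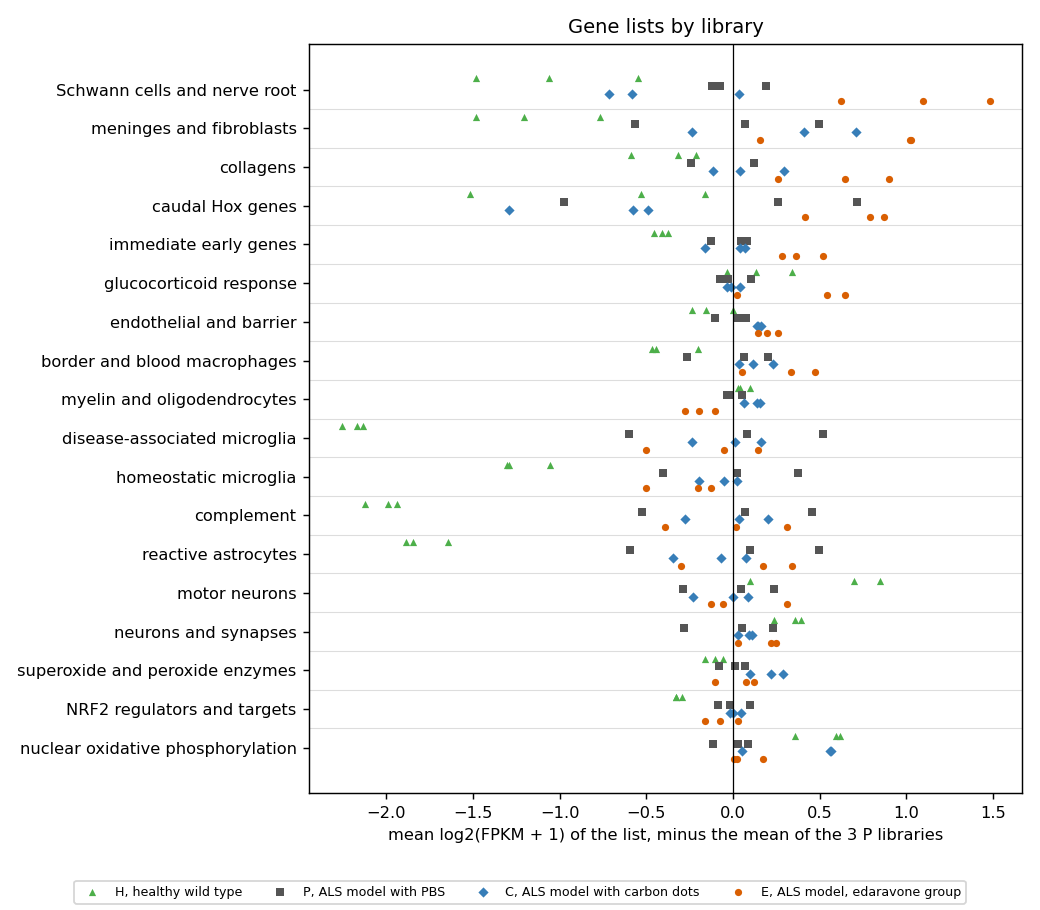
Mean log2(FPKM + 1) over the tested members of each of 18 gene lists, per library, minus the mean of the 3 P libraries (horizontal axis), for H, P, C and E. The nerve root list of E lies above all P values and its myelin list below, while the disease-associated microglial, complement and astrocyte lists of E lie within the spread of P and above all H values.

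Between E and C 31 genes passed (0.171% of 18149), 22 higher (0.121%) and 9 lower (0.0496%) in E. Those higher in E included Lcn2, Scn7a, Lamb1, Ccl11, Steap4, Drp2, Gldn, Pmp22, the glucocorticoid and fasting target Angptl4 and the caudal Hoxc12. Angptl4 was at 1.0, 0.908 and 0.979 FPKM in C, 2.45, 2.17 and 1.11 in P and 4.17, 3.64 and 7.71 in E (1.60 ± 0.22 between E and C, adjusted p = 0.0254). Hoxc12 was at 0, 0 and 0 in C and 3.38, 3.94 and 3.06 in E, and this marker of the level along the cord did not overlap between these groups. Lower in E were Tmprss5 (8.65, 10.6 and 9.17 FPKM in C) and Tppp3, a tubulin-binding protein (125, 111 and 129 in C, 77, 91.7 and 77.7 in P and 81.9, 75 and 76.7 in E). C against P, in which 1 gene passed (0.00551%), shares the P libraries with E against P, and E against C shares the E libraries. All comparisons come from 1 fit of the 12 libraries and share its estimate of the spread.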

How the data were processed

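The unit is not named in the deposited tables. The authors deposited 1 table of FPKM per group, and FPKM was settled from the values: multiplied by GENCODE M21 exon lengths, 95.2 to 95.6% of low values lay within 0.02 of whole multiples of 1 value per library. The tools named, per the submitters' processing notes, are cutadapt, HISAT2 and featureCounts, with build GRCm38, and no version or strand setting was found there. Per the labels' protocols, poly(A) RNA was sequenced.

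From these values, recovered reads (16761300 to 19814100 per library) served for the filter, with at least 10 in at least 3 libraries and 15 in all. It kept 18149 of 33906 genes, 30 of them without a length by an FPKM floor of 0.5. The files hold FPKM and not counts, so a count test was not the main test. limma 3.58.1 in R 4.3.3 (trended, robust moderation, two-sided, Benjamini-Hochberg) was fitted to log2(FPKM + 1) of all 12 libraries with 1 mean per group. Tables were joined across groups with no further scaling. The fit was tested on simulated data. No pair of libraries within a group was identical, and a permutation test of 3 against 3 cannot go below p = 0.1, so none was run. Summaries and figures used Python 3.11.15.

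Named genes were up to 10 per direction past the threshold with a mean FPKM of at least 1, no overlap and a given name, or otherwise the 10 of smallest p. From each of 52 lists up to 3 members of smallest p and 2 of highest FPKM were added, together with the antioxidant genes and standard disease markers. The groups, lists and tests were chosen with earlier results of these data known. Alternatives were other filters, pseudocount, samples in the fit, scaling, limma-voom, moderation, a caudal Hox covariate and each library left out. Some genes are not reported here.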

Additional observations from a re-analysis of the deposited data

How the results depend on the processing

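No gene passed between E and P in 10 of the 15 alternatives. With an FPKM floor of 0.5 in place of the read filter 1 gene passed and with no filter 3 did, and over the 6 fits that leave out 1 library the count ran from 0 to 2. Mir7239, Gm16218 and Gm11943, the genes called by other filters and named after their values were seen, rest on 1 recovered read per library in every mouse of 1 group and none in the other 9 libraries. Of 312 named genes, 89 changed sign in some alternative, none of them called, and 4 passed in any (Lcn2, Ngfr, Lamb1 and Cd5l, each without 1 mouse of E). No paired analysis was possible because no replicate number is shared between groups. Of 780 recomputed list medians, 29 moved by more than the spread between libraries, over 17 lists. With a pseudocount of 0.1 and with limma-voom the medians were 0.56 and 0.61 for border macrophages, 1.93 and 2.44 for adipocytes (1 gene, or -0.0066 with no filter), 0.21 and 0.28 for T and NK cells, -0.16 and -0.19 for B cells, and 1.53 and 2.10 for caudal Hox genes. The T and NK cell median was 0.23 with the FPKM floor. With the caudal Hox score as a covariate the medians were -0.20 for motor neurons, -0.0932 for glycolysis, -0.13 for heat shock chaperones, -2.17 for skeletal muscle and 0.20 for T and NK cells. Leaving out 1 library gave -0.13 to 0.18 for the axon injury response, -7.5e-05 to 0.0557 for ALS-linked genes, -0.0658 to 0.0356 for glycolysis, -0.00239 to 0.112 for the unfolded protein response, 0.21 to 0.61 for the glucocorticoid response, -0.0169 to 0.0969 for the clock, -0.222 to -0.0883 for myelin, 0.18 to 0.28 for endothelium, -0.60 to -0.0068 for erythroid cells and -0.14 to -0.0151 for B cells. The cause of these shifts was not tested. Depth limits genes below the filter, where 1 read per library in 1 group was enough for a call.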

Other observations

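Interferon-response genes differed between mice of E. The mean log2(FPKM + 1) of the 22 genes was 2.84, 1.93 and 3.71 in E, 3.09, 2.66 and 2.09 in P and 1.43 to 1.53 in H. Mouse 90 of E had the highest and mouse 77 the lowest value of the 6. Zbp1, a sensor of unusual nucleic acids, was at 0.820, 0.426 and 3.01 FPKM in E and 1.33, 0.817 and 0.283 in P. The list's median between E and P was 0.22, 0.67 without mouse 77 and -0.20 without mouse 90.

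Of 17 histocompatibility genes of class I and II, which present antigen, 3 had every E value above every P value (4.8% of all genes did), and the list's median was 0.07, or -0.04 to 0.37 with any 1 library left out. These 3 were the class II genes H2-Aa, H2-Ab1 and H2-Eb1, named for their smallest p in the list. H2-Aa was at 5.41, 5.20 and 3.01 FPKM in P and 10.9, 8.38 and 12.6 in E (1.08 ± 0.34, adjusted p = 0.601), while mouse 84 of C stood at 10.8. H2-Ab1 differed by 0.84 ± 0.33 and H2-Eb1 by 1.09 ± 0.40, and neither passed. B2m, the chain shared by class I molecules, differed by -0.03 ± 0.30.

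Atp6v0d2, a proton pump subunit of osteoclasts and phagocytes, was at 0, 0.0201 and 0 FPKM in H, 3.18, 2.33 and 0.606 in P and 5.24, 5.27 and 11.3 in E (1.48 ± 0.34, adjusted p = 0.288), the largest difference from P in the lysosomal list. Apod, a lipid-binding protein of glia and fibroblasts, was at 715, 668 and 404 and 952, 862 and 1617 FPKM (0.93 ± 0.27). Higd1b, a pericyte gene, was at 1.85, 2.25 and 1.81 in P, 3.49, 4.01 and 3.38 in E and 5.46, 3.65 and 3.27 in C (0.64 ± 0.14 between E and P, adjusted p = 0.255). Cd5l, a scavenger protein of macrophages, had recovered reads of 12, 4 and 1 in P and 37, 46 and 94 in E, and 0 in each mouse of H. It passed between E and P only without mouse 90 (adjusted p = 0.0377), the mouse of highest value. Skeletal muscle genes, foreign to the cord, were at a mean log2(FPKM + 1) of 7.61, 4.33 and 2.13 in H, 1.10, 1.46 and 3.81 in P and 1.23, 0.89 and 2.60 in E, with Myh4 at 235, 39.0 and 1.12 FPKM in H and 0, 0.120 and 4.68 in E.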
